A study of Mus musculus with 16 samples.

Results

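The calcium branch of mast cell signalling was followed through 10 genes. They were the transcription factor genes Nfatc1, Nfatc2, Nfatc3 and Nfat5, the calcineurin subunit genes Ppp3ca, Ppp3cb and Ppp3r1, and the calcineurin inhibitor genes Rcan1, Rcan3 and Cabin1. They were picked by gene symbol, as family members and regulators, from the 39179 genes that the count files list. Counts came from 16 samples of bone marrow-derived mast cells (BMMCs), which are cells grown for 4 weeks from the marrow of male C57BL/6 mice aged 8 to 10 weeks in medium with stem cell factor and IL3. PEP+/+ cells are wild type for PEP, a tyrosine phosphatase encoded by Ptpn22, and PEP-/- cells carry the mutant gene. Cells of each genotype received 1 of 4 treatments, with 2 replicates in each of the 8 groups, and every group, controls included, was sensitized with IgE at 0.05 µg/ml for 3 h. IgE cells received nothing else, IgE DNP cells were activated with dinitrophenol (DNP) at 200 ng/ml for 1 h, IgE DEX cells had dexamethasone (DEX, a synthetic glucocorticoid) at 100 nM for 8 h, and IgE DNP DEX cells had both. No sample was without IgE, so sensitization itself could not be examined. The series' design text calls the replicates biological, but the number of mice or cultures behind them is not given in the sources used here, so p-values measure the spread between these samples.

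NFAT proteins wait in the cytoplasm in a phosphorylated form. When antigen crosslinks IgE on its receptor, calcium enters the cell and calmodulin switches on calcineurin, a phosphatase made of a catalytic subunit (encoded by Ppp3ca, Ppp3cb or Ppp3cc) and a regulatory subunit (Ppp3r1 or Ppp3r2). Calcineurin removes phosphates from NFAT, which then enters the nucleus and, often together with AP-1, switches on cytokine genes. Nfat5 lacks the calcineurin-dependent control and is best known for the response to osmotic stress. The RNA counts used here do not measure phosphorylation, nuclear entry or phosphatase activity.

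The libraries held between 8612531 and 22143526 counts assigned to genes. Ptpn22, the gene targeted in PEP-/- cells, was at 11.3 to 174.8 CPM (counts per 1000000 counts assigned to genes, scaled by the TMM method) in the 8 PEP+/+ libraries and at 0 to 3.03 CPM in the 8 PEP-/- libraries. Mast cell markers were present, 8 of 8, and summed to between 49500 and 85700 CPM. The 2 basophil markers, mostly Cd200r3, summed to 519 to 581 CPM in sensitized cells and 732 to 859 CPM once activated, and with DEX to 211 to 351 CPM without DNP and 409 to 424 CPM with it. They moved with the treatments, and their part in the results below was not tested. Macrophage and monocyte markers summed to 15.4 to 46.2 CPM, dendritic cell markers to 1.17 to 17.3 CPM, eosinophil markers to at most 8.06 CPM and neutrophil markers to at most 2.55 CPM. T and NK cell markers summed to at most 2.81 CPM, and Cd3e and Cd3g were at 0 in every library. The markers of the erythroid and megakaryocyte list reached 1940 to 3920 CPM, nearly all from Itga2b. Replicate 2 libraries lay apart from replicate 1 libraries for several genes, and PEP+/+ IgE DNP DEX replicate 1 was the shallowest library and the lowest of the 16 for Nfat5, Nfatc2 and Cabin1, so the values of the genes it moved most are also given without it.

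After IgE alone, levels per kilobase of exon ranked the genes in the order Ppp3r1, Ppp3ca, Rcan3, Nfatc1, Ppp3cb, Rcan1, Cabin1, Nfatc3, Nfatc2 and Nfat5. Ppp3r1, which encodes the calcium-binding regulatory subunit, stood at 37.06 ± 9.14 CPM per kilobase (SD, n = 4). Ppp3ca, the gene for the catalytic alpha subunit, stood at 20.2 ± 0.796, and Ppp3cb, the gene for the beta subunit, at 7.60 ± 1.07. The values of neighbours overlapped for Rcan3 and Nfatc1 (13.05 ± 1.97 and 12.6 ± 2.36) and along the run from Ppp3cb through Rcan1 (6.04 ± 0.796), Cabin1 (5.87 ± 0.867) and Nfatc3 (5.62 ± 1.95) to Nfatc2 (4.57 ± 0.183). Nfat5 came last at 3.09 ± 0.550 CPM per kilobase. The order depends on the length used, and 7 of the 10 places changed when the longest transcript replaced the union of exons.

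Several family genes were nearly silent in BMMCs. Ppp3r2, the alternative regulatory subunit, had no count in any library, while Nfatc4 reached at most 0.617 CPM and Rcan2 at most 0.125 CPM, and these 3 were too low to test. Ppp3cc, the gamma catalytic subunit, was tested but low, at 1.69 to 4.68 CPM. Nfatc2ip, which encodes a protein that binds Nfatc2, lay between 7.87 and 25.12 CPM.

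**Figure D1:**
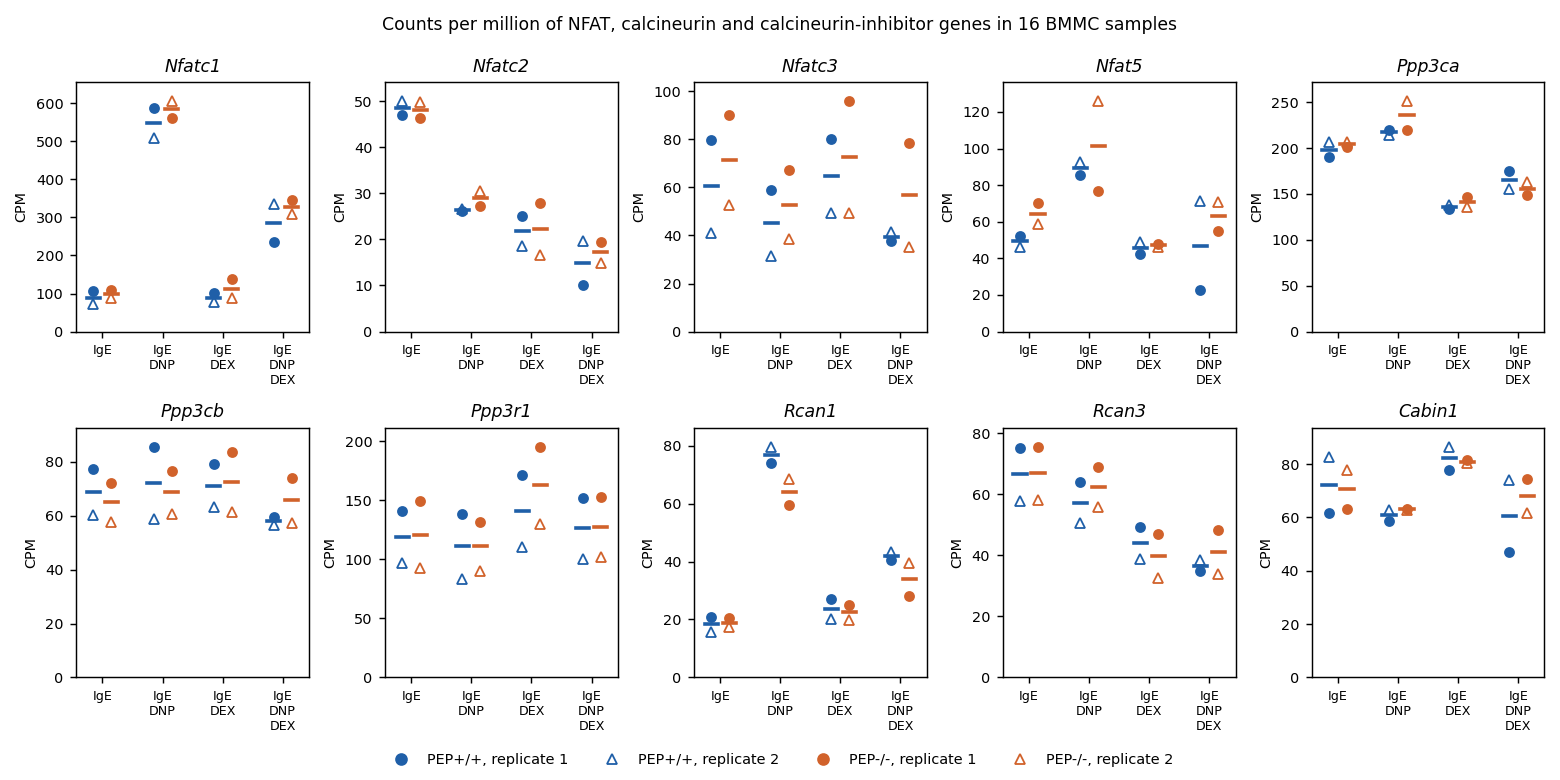
CPM (y axis, from 0) of each of the 10 genes in the 16 samples by treatment (x axis), with PEP+/+ in blue and PEP-/- in orange. Filled circles are replicate 1, open triangles replicate 2 and bars the mean of 2, and Nfatc1 and Rcan1 are highest in the 4 IgE DNP samples, with Nfatc1 between 508.2 and 606 CPM.

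RefSeq gives promoter windows for 2 start sites of Rcan1, and gene-level counts cannot separate transcripts by their start. The bases before each start are printed because the internal start of Rcan1 is the one known, as background, for its control by NFAT, and the window before the upstream start of Nfatc2 is shown beside them because Nfatc2 moved the opposite way. Each is 250 bases, read 5′ to 3′ on the strand of the gene from RefSeq on GRCm38.p6. Capitals mark the core letters of NFAT binding, GGAAA or its reverse complement TTTCC. The windows lie at chr16:92400079-92400328 and chr16:92466170-92466419 for Rcan1 and at chr2:168601658-168601907 for Nfatc2, and all are on the minus strand.
Rcan1, internal start: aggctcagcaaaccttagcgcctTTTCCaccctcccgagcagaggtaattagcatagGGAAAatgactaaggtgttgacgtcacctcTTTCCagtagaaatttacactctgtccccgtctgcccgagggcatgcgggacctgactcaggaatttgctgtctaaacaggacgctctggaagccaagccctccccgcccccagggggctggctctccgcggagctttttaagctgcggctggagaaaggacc
Rcan1, upstream start: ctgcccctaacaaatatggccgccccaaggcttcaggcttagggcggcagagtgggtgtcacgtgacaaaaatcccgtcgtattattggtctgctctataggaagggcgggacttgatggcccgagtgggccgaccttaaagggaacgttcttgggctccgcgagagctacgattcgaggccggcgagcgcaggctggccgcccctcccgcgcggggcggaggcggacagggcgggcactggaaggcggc
Nfatc2, upstream start: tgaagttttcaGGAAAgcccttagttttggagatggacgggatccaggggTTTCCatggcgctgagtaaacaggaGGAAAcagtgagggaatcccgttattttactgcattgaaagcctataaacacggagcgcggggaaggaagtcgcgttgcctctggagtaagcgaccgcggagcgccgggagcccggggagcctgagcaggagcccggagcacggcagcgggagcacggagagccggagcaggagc

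The window before the internal Rcan1 start held 3 core matches and 1 match to the AP-1 letters TGANTCA, while that before the upstream Rcan1 start held 0 of either. The Nfatc2 window printed held 3 core matches, and that before its other start held 1. The Ppp3cb window also held 3, and Ppp3cb did not pass the test after DNP. Nfat5 had 2, Rcan3 had 1, the Nfatc3 windows had 1 and 0, and Cabin1 and Ppp3r1 had 0. Among 32851 promoter windows of this length, 55.6% held at least 1 core match and 6.39% held at least 3, counting both strands, and 6.75% held the AP-1 letters. The letters AGAACA, an element that the glucocorticoid receptor binds, were in 0 of the 11 windows of the 8 genes searched and in 16.1% of all windows. A match is a description of these letters and not a binding site.

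To see how activation changed the pathway, IgE DNP cells were compared with IgE cells, averaged over both genotypes (4 against 4 samples). Nfatc1 and Rcan1 rose and Nfatc2 fell, 3 of the 10 genes, where 16.7% of the 13305 genes tested, and 9.07% with higher values, passed an adjusted p of 0.05 (edgeR quasi-likelihood test, Benjamini-Hochberg adjustment over every gene tested, as for each adjusted p below). The median log2 fold change of the 10 genes was -0.02, beside -0.00065 over all genes tested. Same-numbered samples deviated together, so each comparison was also fitted with the replicate number as a block, and that fit called 5 of the 10 genes against 37.9% of all genes.

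Nfatc1, which encodes the NFAT member that is itself switched on in activated lymphocytes, and is listed as ENSMUSG00000033016, showed the largest change of the 10. Its level was 107.3 and 71.5 CPM in PEP+/+ IgE cells and 109 and 88.8 CPM in PEP-/- IgE cells. After DNP it was 588.4 and 508.2 CPM in PEP+/+ cells and 561.1 and 606 CPM in PEP-/- cells. The lowest activated sample was thus above the highest sensitized one, and the rise was 6.02-fold (log2 fold change 2.59 ± 0.207, SE, adjusted p = 9.87e-06 by edgeR). The rise passed the test in each genotype, where 5.9% (PEP+/+) and 7.22% (PEP-/-) of all genes did, with log2 fold changes of 2.62 in PEP+/+ and 2.56 in PEP-/- cells, and in every alternative fit.

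Rcan1 encodes a feedback inhibitor that binds calcineurin. It is listed as ENSMUSG00000022951 and lies at chr16:92391953-92470867 on the minus strand of GRCm38 (GENCODE M21, as for the positions below). It stood at 20.9 and 15.8 CPM in PEP+/+ IgE cells and at 20.4 and 17.4 CPM in PEP-/- IgE cells. With DNP the values were 73.9 and 79.7 CPM in PEP+/+ and 59.6 and 68.6 CPM in PEP-/- cells, again without overlap. Rcan1 rose 3.77-fold (log2 fold change 1.91 ± 0.172, SE, adjusted p = 2.24e-05 by edgeR). In PEP+/+ cells alone its log2 fold change was 2.06 and in PEP-/- cells 1.77, each past the threshold.

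Nfatc2, the NFAT member long known from resting lymphocytes, moved the opposite way. It is listed as ENSMUSG00000027544 and lies at chr2:168476410-168601657 on the minus strand. Its level was 46.9 and 50.05 CPM in PEP+/+ IgE cells, and 46.4 and 49.9 CPM in PEP-/- IgE cells. DNP brought it to 26.2 and 26.6 CPM in PEP+/+ cells and to 27.3 and 30.5 CPM in PEP-/- cells. The groups did not overlap, and the log2 fold change was -0.81 ± 0.224 (SE, adjusted p = 0.0302 by edgeR, and 0.00338 with the block). Fits with a library left out, here and below, had no block. The call was lost when any 1 of the 8 libraries was left out, with adjusted p up to 0.0901, although the log2 fold change stayed between -0.855 and -0.779.

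Nfat5 and Nfatc3 were added by the replicate block. Nfat5 lay between 46.5 and 70.0 CPM after IgE and between 76.7 and 126.1 CPM after DNP, so the groups did not overlap, with a log2 fold change of 0.76 ± 0.288 (adjusted p = 0.107, and 0.0179 with the block). Nfat5 was also called when genes with low counts were kept (adjusted p = 0.00481) and in a fit of these groups alone (adjusted p = 0.0409). Nfatc3, a family member expressed in many tissues, was lower with DNP in each of the 4 same-numbered pairs, by 0.387 to 0.452 on the log2 scale. Its replicate 1 and replicate 2 libraries differed by more than that within IgE cells, where they read 79.9 and 41.2 CPM in PEP+/+ and 89.96 and 52.6 CPM in PEP-/- cells. The log2 fold change of Nfatc3 was -0.42 ± 0.366 (adjusted p = 0.546, and 0.0405 with the block). Part of the Nfatc3 exons overlaps Esrp2 on the opposite strand, and reads of the 2 genes can be told apart only if strand was used in counting, which the sources used here do not state.

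The calcineurin subunit genes and the remaining inhibitors did not pass either fit after DNP. Ppp3ca was slightly higher in the 4 same-numbered pairs (log2 fold change 0.17 ± 0.106, adjusted p = 0.353), with 189.9 to 206.8 CPM after IgE and 214.6 to 251.6 CPM after DNP. Ppp3cb and Ppp3r1 gave 0.08 ± 0.180 and -0.11 ± 0.275. Rcan3, a relative of Rcan1, gave -0.16 ± 0.186, and Cabin1, a nuclear protein that binds calcineurin and the HIRA histone chaperone, gave -0.20 ± 0.162. Some exons of Ppp3r1 are shared with Wdr92 on the same strand, so its count leaves out reads that fall in both.

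**Figure D2:**
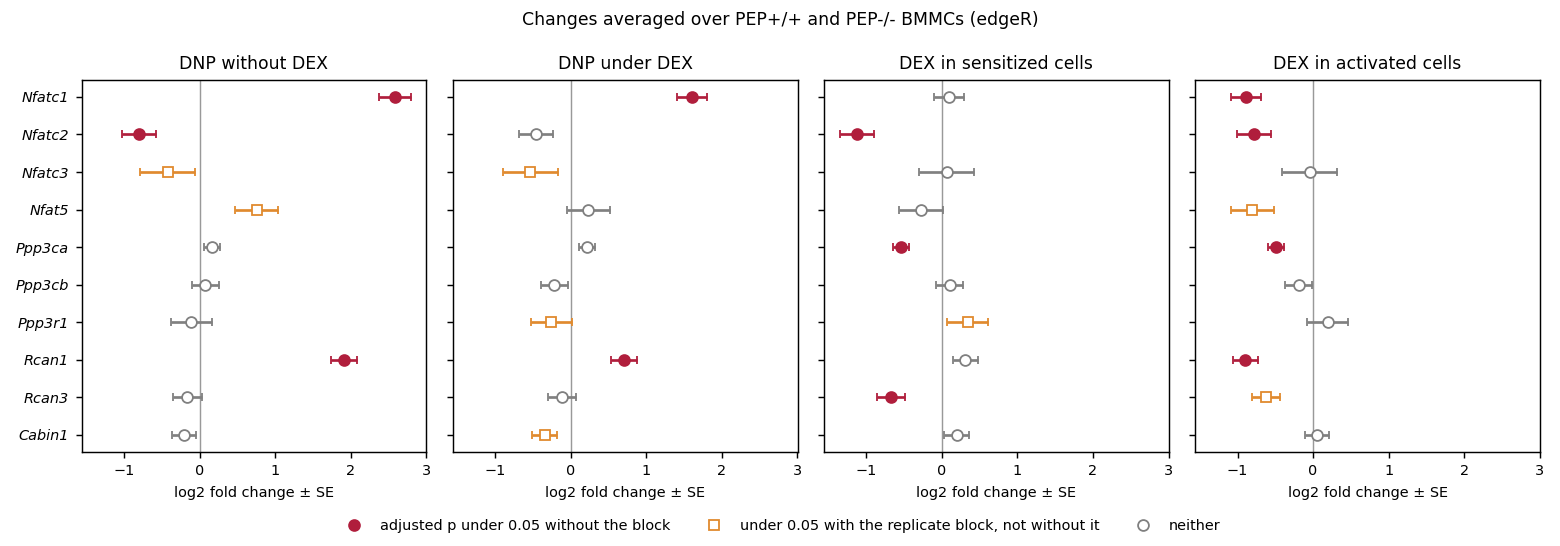
Log2 fold change (x axis) of each gene (y axis) in the 4 treatment comparisons, averaged over PEP+/+ and PEP-/- cells (points, with 1 SE as bars). Red points passed an adjusted p of 0.05, orange squares passed it with the replicate block and not in the same fit without it, and DNP without DEX shows Nfatc1 at 2.59 and Rcan1 at 1.91, with Nfatc2 at -0.81.

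Nfatc1 accounted for a larger share of the calcineurin-dependent NFAT RNA after activation. Its part of the summed CPM per kilobase of Nfatc1, Nfatc2 and Nfatc3 was 55.2% ± 1.23 after IgE (SD, n = 4) and 91.8% ± 1.41 after IgE DNP. With DEX it was 63.2% ± 3.15 without DNP and 88.1% ± 2.56 with it. Nfatc2 went from 20.7% ± 4.71 after IgE to 3.17% ± 0.246 after IgE DNP, and Nfatc3 from 24.1% ± 4.30 to 5.04% ± 1.59. These shares follow from the same counts as the fold changes above and are a description with no test.

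**Figure D3:**
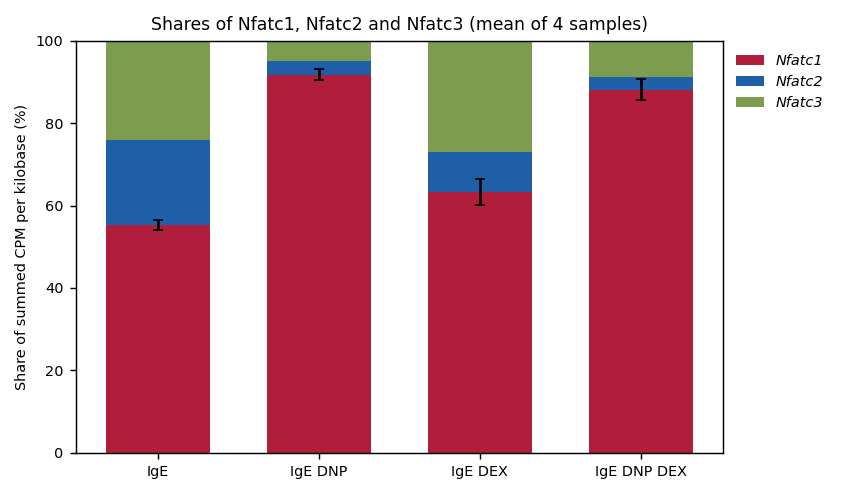
Share of the summed CPM per kilobase (y axis, percent) held by Nfatc1 (red), Nfatc2 (blue) and Nfatc3 (green) under each treatment (x axis), as the mean of 4 samples, with the SD of the Nfatc1 share as error bars. The Nfatc1 share is 55.2% in sensitized cells and 91.8% once activated, and with DEX it is 63.2% and 88.1%.

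Activation was then examined under the glucocorticoid, as IgE DNP DEX against IgE DEX cells. Nfatc1 and Rcan1 rose again and the other 8 genes did not pass the test, where 12.6% of all genes did, and 7.19% with higher values. With the replicate block 5 of 10 genes passed, against 37.6% of all genes. Nfatc1 was at 100.4 and 77.1 CPM in PEP+/+ IgE DEX cells and at 137.5 and 88.2 CPM in PEP-/- IgE DEX cells. With DNP added it was at 234.3 and 334.5 CPM in PEP+/+ and 345.6 and 309.1 CPM in PEP-/- cells. The groups did not overlap and the rise was 3.05-fold (log2 fold change 1.61 ± 0.200, adjusted p = 0.000382 by edgeR). Without PEP+/+ IgE DNP DEX replicate 1 the log2 fold change of Nfatc1 was 1.75.

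Rcan1 read 27.2 and 20.1 CPM in PEP+/+ IgE DEX cells and 25.1 and 19.9 CPM in PEP-/- IgE DEX cells. With DNP it read 40.4 and 43.2 CPM in PEP+/+ cells and 28.1 and 39.6 CPM in PEP-/- cells, so the lowest activated value lay just above the highest without DNP. Its rise was 1.63-fold (log2 fold change 0.70 ± 0.167, adjusted p = 0.0187 by edgeR, and 0.00146 with the block). The call was lost without PEP+/+ IgE DEX replicate 2, without PEP-/- IgE DEX replicate 2 and without PEP-/- IgE DNP DEX replicate 2, and in a fit of these groups alone, with adjusted p up to 0.0889.

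The 3 genes that the block added under DEX were lower with DNP in each same-numbered pair. Nfatc3 had a log2 fold change of -0.49 in that fit (adjusted p = 0.0212), Cabin1 -0.34 (adjusted p = 0.0428) and Ppp3r1 -0.25 (adjusted p = 0.0203). Without the block their adjusted p-values were 0.407, 0.204 and 0.626. Without the block their size moved when single libraries were left out, and the blocked fit was not repeated in that way. Without PEP+/+ IgE DNP DEX replicate 1 and without the block Cabin1 gave -0.18, Ppp3r1 -0.40 and Nfatc3 -0.48. Over the 14 alternative fits Cabin1 ran from -0.512 to -0.178, Ppp3r1 from -0.402 to -0.0803 and Nfatc3 from -0.851 to -0.254. Nfatc2 lay between 16.6 and 27.9 CPM without DNP and between 10.02 and 19.7 CPM with it. The groups overlapped and the log2 fold change was -0.46 ± 0.226 (adjusted p = 0.229), or -0.24 without PEP+/+ IgE DNP DEX replicate 1. Without the other replicate of that group it was -0.73 and passed the test (adjusted p = 0.0472). Nfat5 in that library was at 22.6 CPM, where the other replicate of its group was at 71.4 CPM. Its log2 fold change was 0.23 ± 0.287 with the library and 0.55 without it, and neither passed the test.

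To see what the glucocorticoid did without antigen, IgE DEX cells were compared with IgE cells. Nfatc2, Ppp3ca and Rcan3 fell, 3 of the 10 genes, where 9.37% of all genes passed and 3.98% passed with lower values. With the block 4 of 10 passed, against 26.7% of all genes, and the added gene was Ppp3r1.

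Nfatc2 went from the IgE values above to 25.1 and 18.6 CPM in PEP+/+ and 27.9 and 16.6 CPM in PEP-/- IgE DEX cells. Every value with DEX was below every value without it. The log2 fold change was -1.13 ± 0.225 (adjusted p = 0.00820 by edgeR), and it passed in each alternative fit, with adjusted p up to 0.0447.

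Ppp3ca, listed as ENSMUSG00000028161 at chr3:136670124-136937727 on the plus strand, was tightly spread. It stood at 189.9 and 206.7 CPM in PEP+/+ and 201.3 and 206.8 CPM in PEP-/- IgE cells, and at 133.8 and 137.6 CPM in PEP+/+ and 147.1 and 136.3 CPM in PEP-/- IgE DEX cells. The groups did not overlap, and the log2 fold change was -0.54 ± 0.106 (adjusted p = 0.00778 by edgeR). The call was lost when genes with low counts were kept, with an adjusted p of 0.107.

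Rcan3 is listed as ENSMUSG00000059713 at chr4:135412308-135433853 on the minus strand. It read 75.2 and 57.9 CPM in PEP+/+ and 75.6 and 58.2 CPM in PEP-/- IgE cells. With DEX it read 49.2 and 38.9 CPM in PEP+/+ and 47.03 and 32.6 CPM in PEP-/- cells, below every IgE value. Its log2 fold change was -0.67 ± 0.186 (adjusted p = 0.0449 by edgeR, and 0.000175 with the block). Leaving out any 1 of the 8 libraries other than PEP-/- IgE DEX replicate 1 lost the call without the block, as did a fit of these groups alone, with adjusted p up to 0.18.

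Of the remaining genes, Ppp3r1 was higher with DEX in each same-numbered pair, by 0.193 to 0.496 on the log2 scale (log2 fold change 0.34 ± 0.274, adjusted p = 0.625, and 0.00463 with the block). Nfatc1, the gene that rose most with DNP, gave 0.09 ± 0.196, and Rcan1 gave 0.31 ± 0.168 (adjusted p = 0.906 and 0.366). Nfatc3, Nfat5, Ppp3cb and Cabin1 did not pass either fit.

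In activated cells the effect of the glucocorticoid was taken as IgE DNP DEX against IgE DNP. Rcan1, Nfatc1, Ppp3ca and Nfatc2 fell, 4 of the 10 genes, and 0 rose. Among all genes 10.7% passed and 4.99% passed with lower values. The median log2 fold change of the 10 genes was -0.56, beside -0.01 over all genes tested. With the block 6 of 10 genes passed, against 33.3% of all genes, and the added genes were Nfat5 and Rcan3.

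Rcan1 fell by 0.90 ± 0.167 on the log2 scale (adjusted p = 0.00550 by edgeR), from 59.6 to 79.7 CPM without DEX to 28.1 to 43.2 CPM with it, and did so in each alternative fit, by 0.85 without PEP+/+ IgE DNP DEX replicate 1. Nfatc1 fell by 0.89 ± 0.196 (adjusted p = 0.0144 by edgeR, and 0.000503 with the block), from 508.2 to 606 CPM to 234.3 to 345.6 CPM. Neither gene's groups overlapped. The Nfatc1 call was lost without PEP+/+ IgE DNP replicate 1, without PEP+/+ IgE DNP DEX replicate 1 and without PEP-/- IgE DNP DEX replicate 2, and without the second of these its log2 fold change was -0.75 (adjusted p = 0.0603).

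Ppp3ca stood at 220.1 and 214.6 CPM in PEP+/+ and 220.2 and 251.6 CPM in PEP-/- IgE DNP cells. With DEX it stood at 175.5 and 155.0 CPM in PEP+/+ and 148.6 and 163.1 CPM in PEP-/- cells. The groups did not overlap and Ppp3ca fell by 0.50 ± 0.106 on the log2 scale (adjusted p = 0.0120 by edgeR, and 0.000617 with the block). The call was lost without PEP-/- IgE DNP DEX replicate 1 or PEP-/- IgE DNP replicate 2, when low genes were kept and in a fit of these groups alone, with adjusted p up to 0.151.

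Nfatc2 with DEX and DNP was at 10.02 and 19.7 CPM in PEP+/+ and 19.5 and 14.9 CPM in PEP-/- cells, below every IgE DNP value. Its log2 fold change of -0.78 ± 0.227 was at the edge of the test (adjusted p = 0.04994 by edgeR, and 0.00832 with the block). It was lost without any 1 of the 8 libraries other than PEP+/+ IgE DNP DEX replicate 2 and in a fit of these groups alone, with adjusted p up to 0.17. Without PEP+/+ IgE DNP DEX replicate 1 the log2 fold change was -0.56 (adjusted p = 0.137). Of the 4 treatments Nfatc2 was lowest in the cells that had both agents, although those values overlapped with the IgE DEX values.

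Rcan3 lay between 50.5 and 68.8 CPM after IgE DNP, and with DEX between 33.8 and 48.1 CPM, which did not overlap (log2 fold change -0.63 ± 0.187, adjusted p = 0.0557, and 0.000432 with the block). Rcan3 was also called by DESeq2 (adjusted p = 0.0249) and in edgeR with no filter on low counts (0.0470) or with at least 10 counts in every sample (0.0338). Nfat5 gave -0.80 ± 0.288 (adjusted p = 0.108, and 0.0115 with the block), or -0.48 (adjusted p = 0.171) without PEP+/+ IgE DNP DEX replicate 1. It was called when low genes were kept (adjusted p = 0.00319), and without PEP+/+ IgE DNP DEX replicate 2, at -1.32 (adjusted p = 0.00277). Nfatc3, Ppp3cb, Ppp3r1 and Cabin1 did not pass either fit. Ppp3cc, the low gamma subunit, fell by 0.81 ± 0.226 (adjusted p = 0.0417 by edgeR). Nfatc2ip gave -0.01 ± 0.208 in this comparison, and had fallen by 0.73 ± 0.206 with DNP alone (adjusted p = 0.0317 by edgeR).

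Whether DEX altered the response to DNP was tested as the difference between both DNP effects. The rise of Nfatc1 was smaller by 0.98 ± 0.277 on the log2 scale under DEX, and that of Rcan1 by 1.21 ± 0.236. Neither difference passed the test across all genes (adjusted p = 0.474 and 0.0757), in which 0.331% of genes, 44 in all, did. With the replicate block both passed (adjusted p = 0.0348 for Nfatc1 and 0.00498 for Rcan1), against 1.57% of genes. Without PEP+/+ IgE DNP DEX replicate 1 the differences were -0.83 and -1.15, and neither passed without the block. For Ppp3ca and Rcan3 the difference was near 0, at 0.04 ± 0.149 and 0.04 ± 0.263.

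**Figure D4:**
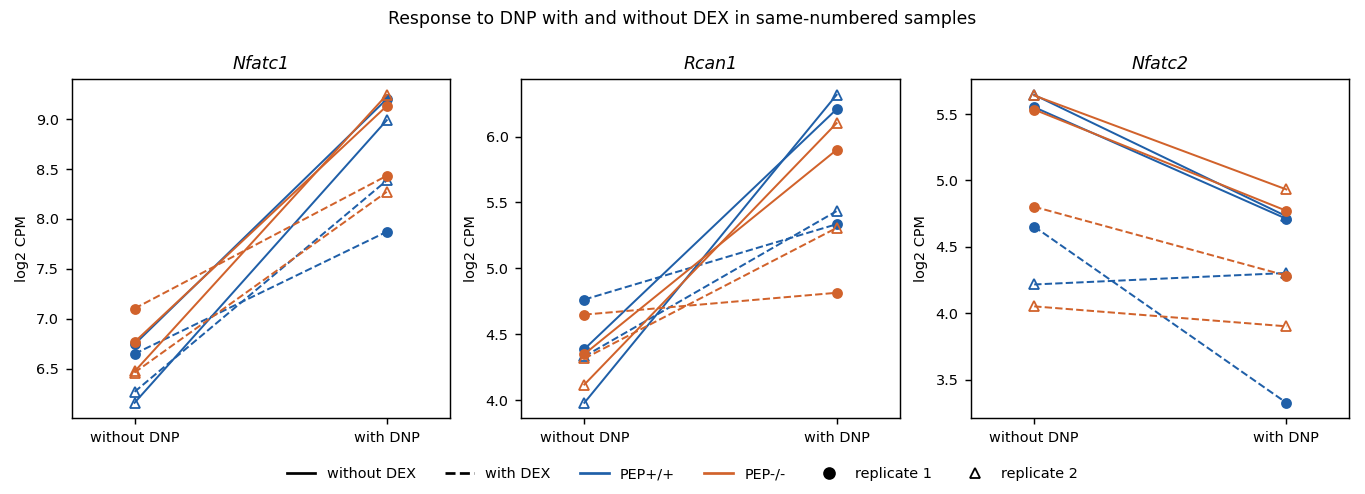
Log2 CPM (y axis) of Nfatc1, Rcan1 and Nfatc2 without and with DNP (x axis), each line joining same-numbered samples, with solid lines for cells without DEX and dashed lines for cells with it. The Nfatc1 and Rcan1 lines rise in each of the 8 pairs, and the dashed lines are less steep, with log2 fold changes of 1.61 against 2.59 for Nfatc1 and 0.70 against 1.91 for Rcan1.

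The last question was whether loss of PEP changed the pathway. In PEP-/- against PEP+/+ cells, averaged over the 4 treatments (8 against 8 samples), 0 of the 10 genes passed, with or without the block, where 1.59% and 17.4% of all genes did. At an unadjusted p of 0.05 the count was also 0 of 10 in the fit without the block, where 1884 of the 13305 genes tested passed. Without PEP+/+ IgE DNP DEX replicate 1 the count was again 0, and Nfat5 went from 0.26 to 0.10. The log2 fold changes ran from -0.15 for Rcan1 to 0.29 for Nfatc3, with SEs between 0.0747 and 0.258, and the smallest adjusted p was 0.614. DESeq2 also called 0 of the 10, and 668 of the 23136 genes given to it. The interaction of genotype with DNP was tested in cells without DEX and that with DEX in activated cells, and genotype was not tested on DNP under DEX or on DEX in sensitized cells. Of the 13305 genes 0 passed either interaction in edgeR, with 30 and 95 genes at an unadjusted p under 0.05 and 0 genes for either by DESeq2. For the 10 genes the interaction with DNP ran from -0.30 ± 0.333 (Rcan1) to 0.14 ± 0.446 (Nfatc2), and the largest SE was 0.731 (Nfatc3). Differences of the size seen for Rcan1 and Nfatc2 were below their own SEs and could not be resolved with 2 replicates a group.

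The proteins that lead to calcineurin were covered by 14 genes for phospholipases, calcium channels, their sensors and calmodulin, of which 14 were tested. After DNP without DEX 3 rose and 3 fell, with or without the block. Of all genes 16.7% passed without the block and 37.9% with it, and the list median was 0.12. Orai1, the pore of the store-operated calcium channel, rose by 1.58 ± 0.171 on the log2 scale, from 22.2 ± 1.82 to 66.6 ± 15.1 CPM (SD, n = 4). Stim2, a sensor of stored calcium, rose by 0.97 ± 0.147. Orai2, another channel subunit, fell by 0.70 ± 0.156. In activated cells Orai1 fell by 0.90 ± 0.168 with DEX (adjusted p = 0.00568 by edgeR), and Plcg2 rose. That was 1 of 14 genes each way, where 10.7% of all genes passed. With the block 2 rose and 5 fell, where 33.3% of all genes passed.

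Another list held 14 genes for the kinases that rephosphorylate NFAT, for its nuclear transport and for Homer proteins. Of these, 1 passed after DNP without DEX, where 16.7% of all genes did, and the list median was 0.22. That gene was Mapk14, which encodes p38 alpha and rose by 0.85 ± 0.125, from 178 ± 15.9 to 321.1 ± 20.3 CPM (adjusted p = 0.000754 by edgeR). With the block 6 rose and 2 fell, where 37.9% of all genes passed. Of 8 genes for other calcineurin inhibitors, anchors and immunophilins 6 were tested and 0 passed, with 1 higher with the block and a median of 0.17. Of 8 genes for partners of Cabin1, among them the HIRA complex and MEF2 factors, 6 were tested and 0 passed, with 1 lower with the block and a median of -0.14.

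The NFAT target list held 14 genes, mostly cytokines and early-response factors, of which 10 were counted deeply enough to test. After DNP without DEX 9 of these 10 rose, where 9.07% of all genes did. The 10th was Il4, at 14.1 ± 2.75 CPM after IgE and 22.6 ± 7.88 CPM after IgE DNP (adjusted p = 0.0780, and 0.00326 with the block, which called 10 of 10). With the block 37.9% of all genes passed in either direction. Tnf, a cytokine that mast cells make on activation, went from 1.21 ± 0.607 to 308.1 ± 160 CPM, a log2 fold change of 7.99 ± 0.271. Ptgs2, which encodes an inducible enzyme of prostaglandin synthesis, went from 0.371 ± 0.303 to 46.4 ± 10.99 CPM. Csf2, which encodes the growth factor GM-CSF, had 1 count over the 4 IgE libraries and 456 over the 4 IgE DNP libraries, and was at least 187.7-fold higher, taking 3 counts over the group as the floor. The list median was 6.44 on the log2 scale, or 6.28 with Csf2 and Il5 set to that floor. In activated cells 6 of the 10 fell with DEX, where 4.99% of all genes did. Among them was Tnf, from 308.1 ± 160 to 26.4 ± 6.58 CPM. In the fit with the block 9 of the 10 fell, where 33.3% of all genes passed in either direction. Several of the genes passed the filter through the groups in which they were high, so the counts describe the list and support nothing about it.

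Of 8 genes known as NFAT5 targets in osmotic stress, 7 were tested and 3 rose after DNP without DEX, where 9.07% of all genes did, and the list median was 0.16. With the block 3 rose and 1 fell, where 37.9% of all genes passed. Slc5a3, a myo-inositol transporter, rose by 2.20 ± 0.281 on the log2 scale, from 6.29 ± 1.67 to 29.0 ± 7.35 CPM. Hspa4l, a chaperone, rose by 1.14 ± 0.316. Hspa1b, a heat-shock protein, was at 0.0661 ± 0.0834 CPM after IgE and 3.08 ± 1.90 CPM after IgE DNP. It could pass the filter on low counts through the activated cells alone, so its call adds nothing about the list. In activated cells with DEX against those without it 0 of the 7 passed, where 10.7% of all genes did. With the block 1 was higher and 3 were lower, where 33.3% of all genes passed.

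Across the 16 samples the log2 levels of Nfatc1 and Rcan1 ran together (Pearson r = 0.944), while those of Nfatc2 ran closer to Rcan3 (r = 0.837) than to Nfatc1 (r = -0.297). The genes whose levels were most like those of Nfatc1 were Zswim4 (r = 0.991), Jarid2 (r = 0.988) and Csrnp1 (r = 0.987). For Rcan1 they were Mst1r and Fosl1 (both r = 0.971) and Ripk2 (r = 0.969). For Nfatc2 they were Dicer1 and Orai2 (both r = 0.946) and Tulp3 (r = 0.939), for Ppp3ca Maged2 (r = 0.96), Smco4 (r = 0.955) and Mapk3 (r = 0.953), and for Rcan3 Camkk2 (r = 0.995), Fry (r = 0.973) and Gng12 (r = 0.959). The 16 samples share their treatments and 2 replicate sets, so the correlations describe these libraries and carry no test.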

How the data were processed

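Total RNA from 16 BMMC samples was sequenced with a stranded mRNA kit. The authors deposited raw counts per gene, 1 file per sample, and per the labels used TopHat2 for alignment to GRCm38, HTSeq for counting and DESeq2. The strand setting of the counting and the design of their test are not given in the sources used here. The labels give the IgE dose stated in the text, and the study's methods state another dose.

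Of 39179 gene IDs, 37607 (95.99%) were named in GENCODE M21. The 5 rows that name no gene were left out of library sizes. Of the sum of all rows of a file, reads with more than 1 alignment made up 21.45 to 37.76%, reads outside genes 4.69 to 10.98% and ambiguous reads 1.9 to 2.5%. The share with more than 1 alignment differed by treatment, at 21.45 to 25.56% in IgE and 30.3 to 37.76% in IgE DNP DEX libraries. It was 25.1 to 27.66% in IgE DEX and 24.0 to 31.52% in IgE DNP libraries. TMM factors were 1.135 to 1.179 in IgE libraries and 0.821 to 0.952 in libraries with DNP. The part of these differences in the results was not tested. Reads shared with near-identical genes are missing from the counts.

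Counts were tested with edgeR 4.0.16 (quasi-likelihood, TMM, filterByExpr with a minimum count of 10) in R 4.3.3, fitting 8 group means over 16 samples, with Benjamini-Hochberg adjustment over 13305 genes and a threshold of 0.05. The biological coefficient of variation was 0.312, and 0.133 with the replicate block. Treatment effects were averaged over genotypes. Replicate 1 was the sample whose title has a number and replicate 2 the one whose title has a letter, which the labels list as replicates. Same-numbered samples deviated together in the 28 pairs of groups (correlations 0.453 to 0.799), so blocked values stand beside results that they change, although the labels do not say that a set was prepared together. Replicates of a group differed by more than sampling noise (chi-square per degree of freedom 50.4 or more). The fit was tested on simulated data. Alternatives were the block, DESeq2 1.42.0, its size factors, other filters on low counts, a fit of the compared groups alone, each library left out, and another gene length.

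The 10 genes and the gene lists were chosen with earlier results of these data known. Text names the 10 genes, 5 other family genes, at most 3 changed genes per list (largest change) and 3 genes most correlated with each changed gene. Il4, Il5 and Plcg2 were named after their values were seen. Promoter windows were matched by symbol for 8 of the 10 genes. Nfatc1, which lies on chromosome 18, was left out of that search, and Ppp3ca had no window. The floor of 3 counts covers counting error alone, and reads had no molecular identifiers. The result of 1 marker list is not reported here.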

Additional observations from a re-analysis of the deposited data

Results flagged for a closer look

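Effects of the 10 genes under the same treatment were compared by direction in 60 pairs, between genotypes and between cells with and without the other agent, and the differences between both DNP effects were tested. Values set apart in this way were the following.

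The smaller rise of Nfatc1 and Rcan1 with DNP under DEX passed the test of the difference in the fit with the replicate block, at -0.97 and -1.21 on the log2 scale. Rcan1 was higher with DEX in 4 of 4 same-numbered pairs of sensitized cells and lower in 4 of 4 pairs of activated cells, a difference of -1.21 between the mean changes, which is the same contrast. Ppp3cb was also higher with DEX in 4 of 4 pairs without DNP and lower in 4 of 4 pairs with it, a difference of -0.28, and the test of that difference gave an adjusted p of 0.9999 without the block and 0.406 with it (edgeR). Rcan3 was higher with DNP under DEX in both PEP-/- pairs and lower in both PEP+/+ pairs, a difference of 0.303 on the log2 scale that was not tested. The PEP+/+ pair numbered 1 holds the shallowest library.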

How the results depend on the processing

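With the replicate block the number of the 10 genes called was 5 for DNP without DEX, 5 for DNP under DEX and 2 for the difference between both DNP effects, against 3, 2 and 0 without it. The share of all genes called also rose with the block, to 37.9%, 37.6% and 1.57% from 16.7%, 12.6% and 0.331%. The block moved no other count of called genes by more than 1.5 times. A fit of the compared groups alone called 1 gene for DNP under DEX and 2 for DEX in activated cells. DESeq2 and a fit that kept genes with low counts each called 1 gene, Rcan1, for the difference between both DNP effects. For that difference DESeq2 called 97 of the 23136 genes given to it. When each library was left out in turn, the count was 1 to 3 for DNP under DEX and 2 to 5 for DEX in activated cells. For these moves the cause was not tested, beyond the fewer samples of the smaller fits. Shares over all genes are not given here for the fits other than the block and DESeq2, so their counts describe these genes only.

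No called value changed sign in any alternative. Values near 0 did when single libraries were left out. Over all alternatives, the range for DNP without DEX was -0.0812 to 0.188 for Ppp3cb and -0.323 to 0.0882 for Ppp3r1. For DNP under DEX it was -0.282 to 0.55 for Nfat5 and -0.237 to 0.0292 for Rcan3. For DEX in sensitized cells it was -0.0865 to 0.257 for Nfatc1, -0.214 to 0.346 for Nfatc3 and -0.0151 to 0.21 for Ppp3cb. For DEX in activated cells it was -0.369 to 0.234 for Nfatc3, which was 0.0041 with the block, and -0.116 to 0.219 for Cabin1. For the difference between both DNP effects it was -0.418 to 0.185 for Nfatc3, -0.346 to 0.0868 for Ppp3r1, -0.0779 to 0.188 for Rcan3 and -0.298 to 0.036 for Cabin1. For PEP-/- against PEP+/+ it was -0.0202 to 0.231 for Nfatc2, -0.0518 to 0.0836 for Ppp3cb, -0.0361 to 0.162 for Ppp3r1, -0.0355 to 0.098 for Rcan3 and -0.0363 to 0.131 for Cabin1. Leaving out a library leaves 1 sample in its group, which is then assumed to vary like the others.

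With 2 replicates a group, differences of the size seen between genotypes could not be resolved.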
